A study of Mus musculus with 6 samples.

Results

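Drug and xenobiotic metabolism enzymes were examined in whole lungs of mice after treatment meant to delete Tmem100. The members were the probes whose annotated gene symbol begins with Cyp and a digit (cytochrome P450s, without the sterol enzyme gene Cyp51), Fmo and a digit (flavin monooxygenases), Aldh (aldehyde dehydrogenases), Ces (carboxylesterases), Ephx (epoxide hydrolases), Gst (glutathione S-transferases), Ugt (UDP-glucuronosyltransferases) or Sult (sulfotransferases), kept where 3 or more of the 6 arrays gave a detection p-value under 0.05. All 102 such probes that carried a gene name met this detection rule, 90 of them on all 6 arrays, and they measured 78 genes out of 9383 named genes tested. By family these were 25 Cyp, 4 Fmo, 15 Aldh, 5 Ces, 3 Ephx, 19 Gst, 3 Ugt and 4 Sult genes. Probes for Aldh8a1, Cyp8b1 and Ephx2 were detected on exactly 3 arrays, and no named member probe lay on fewer. Only 12495 of the 25697 probes on the array carried a gene name. Members among the unnamed probes were not seen, so whether every probe of these families was detected is not known here.

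Each mouse's lung RNA was read on its own Illumina bead array. The 3 control mice had the genotype Tmem1002loxP/2loxP, a Tmem100 gene flanked by loxP sites on both alleles, and carried no CreER. The 3 mutant mice, Tmem1002loxP/2loxP;ROSA26+/CreER, carried in addition a tamoxifen-activated Cre recombinase at the ROSA26 locus, which is active in most cell types. All 6 mice received 2 intraperitoneal injections of tamoxifen at 0.1 mg per g of body weight, and lungs were collected 7 days later. The sources used here do not give the ages of the mice. Without mice that carried CreER and no loxP allele, an effect of active CreER and one of Tmem100 loss cannot be told apart.

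These enzymes work in an order. Phase I enzymes, chiefly P450s, flavin monooxygenases, aldehyde dehydrogenases, esterases and epoxide hydrolases, oxidise, reduce or hydrolyse a foreign or endogenous compound, and phase II transferases then attach glutathione, glucuronic acid or sulfate so that pumps can export it. In the lung, club cells of the airways are the classical site of P450 expression, and alveolar, stromal and endothelial cells express some of these enzymes. Many members also act on the body's own molecules: retinoids, steroids, fatty acid epoxides, folates and the breakdown products of amino acids.

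The targeted gene was read first. The log2 intensity of Tmem100, normalized as all log2 intensities here, was 11.16 in control mouse 1, 15.36 in control mouse 2 and 10.69 in control mouse 3, against 8.44, 9.43 and 9.51 in the mutants. The groups did not overlap, but the log2 difference of -3.28 ± 1.15 (SE, n = 3 mice per group) did not pass the threshold of 0.05 in limma's moderated test with Benjamini-Hochberg adjustment over all tested probes (adjusted p = 0.0749). Without control mouse 2 the log2 difference was -1.80 (adjusted p = 0.0283; the range over all alternatives was 0.0283 to 0.197). Lung identity was plain in both groups: the surfactant gene Sftpc lay between 14.35 and 14.86 on all 6 arrays, and the club cell secretoglobin gene Scgb1a1 between 15.95 and 15.99. The arrays had median intensities of 333 to 363 and 12781 to 13749 detected probes, with fewer detected in each mutant (12781 to 13046) than in any control (13354 to 13749). Precision is limited by there being 3 arrays a group.

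The enzymes did not move as a class. Of the 78 genes, 12 were higher in mutants and 9 were lower at an adjusted p below 0.05, 26.9% in all, against 27.2% of all 9383 named genes. The 9 lower genes include 2, Cyp8b1 and Ephx2, that met the detection rule through the control arrays alone. No member met it through the mutant arrays alone. Across all named genes 12.7% were higher and 14.5% lower. The median log2 difference was 0.08 for the members and 0.01 for all named genes. The groups did not overlap for 21 members that lay higher and 17 that lay lower in every mutant, and among all named genes this held for 24.6% higher and 24.5% lower. By probe, 29 of the 102 passed, 18 higher and 11 lower, against 26.7% of all 13361 tested probes. Phase I families held 17 of the 21 genes, 10 higher and 7 lower of 52 measured, and phase II families held 2 higher and 2 lower of 26. The genes that rose most were Sult1d1, Cyp2b23 and Cyp3a13, and those that fell most, among genes detected in both groups, were Ces2g, Aldh1a2 and Cyp2e1. Both counts changed when 1 mouse was left out, to 8 to 14 higher and 4 to 7 lower members. The lower count was 4 without control mouse 1 and 5 without mutant mouse 1. Fewer of all tested probes passed in these smaller fits (1664 to 3067, against 3573).

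**Figure D1:**
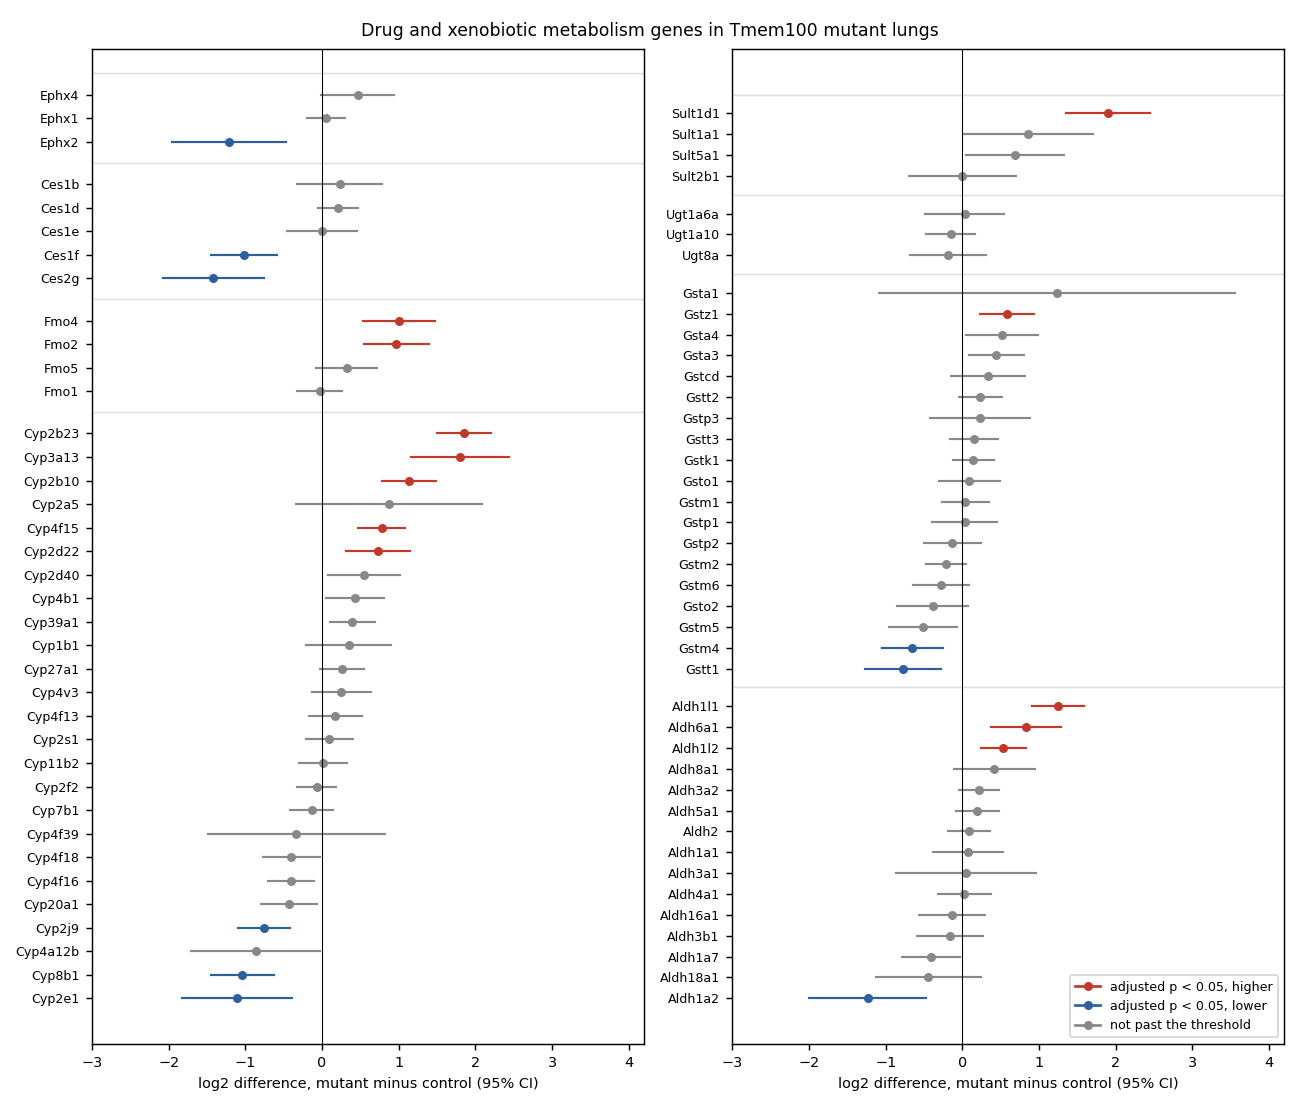
Log2 difference between mutant and control lungs (x axis, mutant minus control, with the 95% confidence interval of the limma fit) for each of the 78 genes, listed on the y axis by family. Sult1d1, Cyp2b23 and Cyp3a13 lie farthest to the right among the genes that passed, at 1.80 to 1.90, and Ces2g farthest to the left, at -1.42. Gsta1 has the widest interval, from -1.09 to 3.56.

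Promoter windows of 4 changed members are shown because these include a pair of paralogues that rose together, the gene with the largest rise, and the retinoic acid synthesis gene that fell. The windows are those of RefSeq on mouse build GRCm38.p6 and run from 250 bases before to 50 bases after the annotated start. They lie at chr7:25897408-25897707 (+ strand) for Cyp2b10, chr7:26686381-26686680 (- strand) for Cyp2b23, chr5:87568957-87569256 (- strand) for Sult1d1 and chr9:71215539-71215838 (+ strand) for Aldh1a2. Each is written 5′ to 3′ on its gene's strand, and capitals mark matches, on either strand, to GCGTG, the core bound by the aryl hydrocarbon receptor with its partner ARNT, or to TGACNNNGC, the core of the antioxidant response element. These motifs do not overlap in the windows shown.
Cyp2b10: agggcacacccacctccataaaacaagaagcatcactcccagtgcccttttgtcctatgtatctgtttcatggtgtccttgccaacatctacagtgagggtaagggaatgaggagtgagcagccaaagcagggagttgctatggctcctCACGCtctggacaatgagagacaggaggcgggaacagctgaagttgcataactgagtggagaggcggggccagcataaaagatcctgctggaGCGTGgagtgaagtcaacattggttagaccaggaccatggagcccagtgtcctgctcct
Cyp2b23: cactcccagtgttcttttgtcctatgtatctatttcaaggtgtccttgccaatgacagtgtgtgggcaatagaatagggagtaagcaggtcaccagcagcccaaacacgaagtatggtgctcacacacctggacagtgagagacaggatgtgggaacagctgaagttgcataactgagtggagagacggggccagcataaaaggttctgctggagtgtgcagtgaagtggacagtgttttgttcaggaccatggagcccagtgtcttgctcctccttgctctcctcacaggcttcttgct
Sult1d1: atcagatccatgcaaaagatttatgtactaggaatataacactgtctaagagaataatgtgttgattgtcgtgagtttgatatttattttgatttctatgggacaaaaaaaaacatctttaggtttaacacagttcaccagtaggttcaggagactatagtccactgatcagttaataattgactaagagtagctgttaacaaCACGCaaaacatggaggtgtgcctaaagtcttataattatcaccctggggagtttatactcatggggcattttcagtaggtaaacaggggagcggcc
Aldh1a2: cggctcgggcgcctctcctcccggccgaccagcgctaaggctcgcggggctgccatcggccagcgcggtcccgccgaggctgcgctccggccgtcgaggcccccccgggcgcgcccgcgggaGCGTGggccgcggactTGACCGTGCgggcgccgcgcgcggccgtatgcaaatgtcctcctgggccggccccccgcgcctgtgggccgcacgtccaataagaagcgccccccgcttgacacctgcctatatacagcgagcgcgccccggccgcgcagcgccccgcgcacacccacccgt

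Aligned end to end, the Cyp2b10 and Cyp2b23 windows shared 225 identical bases out of 300. Cyp2b10 held 2 copies of GCGTG, Sult1d1 and Aldh1a2 held 1 each, and Cyp2b23 held none, while TGACNNNGC occurred in the Aldh1a2 window only among these 4. RefSeq windows were matched for 64 of the 78 members. GCGTG was present for 22 of these 64 genes (34.4%), against 35.2% of all 27025 genes with a window, and for 5 of the 17 changed members with a window. TGACNNNGC was present for 6 of the 64 (9.38%), against 14.0% of all genes, and for 2 changed members, Aldh1a2 and Cyp8b1, both lower in mutants. A partial glucocorticoid response element, a whole half-site and the 3 inner bases of the other around a spacer of any bases, was searched on both strands and was present in 0 members and in 0.481% of all genes. A match is a run of letters, and its absence says only that these letters are not in this window.

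Among the P450 genes that passed, Cyp2b23, Cyp3a13 and Cyp2b10, of the drug-metabolising Cyp2b and Cyp3a subfamilies, rose most. Cyp3a13 was the only Cyp3a gene measured. Cyp2b23 gave log2 intensities of 9.23, 8.98 and 9.13 in controls (mice 1, 2 and 3, in this order throughout) and of 11.10, 11.08 and 10.71 in mutants, a 3.61-fold rise (log2 difference 1.85 ± 0.15, SE; adjusted p = 0.00252). Cyp2b10, the gene that ligands of the nuclear receptor CAR induce in mouse liver, gave 13.83, 13.63 and 14.05 in controls and 15.01, 15.09 and 14.81 in mutants, a 2.20-fold rise (1.14 ± 0.15; adjusted p = 0.00447). In both genes the lowest mutant lay well above the highest control, and the second, dimmer Cyp2b10 probe also rose, by 1.45 ± 0.24. The coding sequences of mouse Cyp2b genes are closely related, so how far the probes tell Cyp2b10 and Cyp2b23 apart is uncertain. Cyp3a13, of the subfamily that handles the largest range of drugs, gave 8.73, 7.96 and 9.08 in controls and 10.32, 10.39 and 10.45 in mutants, 3.48-fold higher (1.80 ± 0.27; adjusted p = 0.00615). The 3 mutants were nearly level with one another while the controls spread over more than 1 log2 unit. Of its other probes 1 rose by 1.74 ± 0.26, and the dimmest, detected on 1 control array, differed by 0.68 ± 0.24 and did not pass (adjusted p = 0.0761).

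The other P450 genes that rose did so by less. Cyp2d22, a mouse member of the CYP2D drug-oxidising subfamily, gave 11.73, 11.42 and 12.08 in controls and 12.55, 12.42 and 12.45 in mutants, 1.66-fold higher (0.73 ± 0.18; adjusted p = 0.0236). Cyp4f15, of a subfamily of fatty acid and leukotriene hydroxylases, gave 7.86, 7.95 and 8.02 in controls and 8.85, 8.52 and 8.80 in mutants, 1.71-fold higher (0.78 ± 0.13; adjusted p = 0.00825). The groups were separate for both genes, by the smaller margin for Cyp2d22. The call of Cyp2d22 ended when any 1 of control mice 1 and 2 and mutant mice 1 and 2 was left out (adjusted p up to 0.0772). None of the 7 other Cyp4 genes measured passed: Cyp4f16 differed by -0.40, Cyp4f18 by -0.40, Cyp4f39 by -0.34, Cyp4a12b by -0.87, Cyp4f13 by 0.17, Cyp4v3 by 0.25 and Cyp4b1 by 0.43, and differences between these genes were not tested. Without mutant mouse 3 Cyp4f39 differed by -0.95 and passed (adjusted p = 0.0204; 0.0204 to 0.996 over its alternatives), and without control mouse 3 Cyp4b1 differed by 0.56 and passed (adjusted p = 0.0415; 0.0164 to 0.225). Cyp4f16 (adjusted p = 0.0534) passed as lower in several settings, such as no background correction (0.0334; 0.0334 to 0.979 over its alternatives). Cyp4a12b passed as lower with the replicate block (adjusted p = 0.0308) and with array weights (0.0485; 0.0308 to 0.297 over its alternatives). A second Cyp4f16 probe pointed the other way (0.42 ± 0.18; adjusted p = 0.136).

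The P450 genes that fell belong to other subfamilies or act on other substrates. Cyp2e1, the ethanol-inducible P450 that also activates small toxicants, gave 9.91, 10.68 and 9.48 in controls and 9.07, 9.04 and 8.60 in mutants, 2.17-fold lower (-1.11 ± 0.30; adjusted p = 0.0357). Cyp2j9, of a subfamily that forms epoxides from arachidonic acid, gave 8.06, 7.96 and 7.72 in controls and 7.24, 7.27 and 6.97 in mutants, 1.69-fold lower (-0.75 ± 0.14; adjusted p = 0.0116). The 3 mutants lay below all 3 controls for both, with control mouse 2 standing highest for Cyp2e1. Cyp8b1, the sterol hydroxylase of cholic acid synthesis, gave 6.75, 6.63 and 6.95 in controls and had no detected value in mutants (5.47, 5.69 and 6.05), so it was, after background correction, at least 1.60-fold lower (adjusted p = 0.00831). The call of Cyp2e1 ended without control mouse 1 or 2 or any 1 mutant (adjusted p up to 0.0898), with the deposited processed values (0.0704) and without the filter (0.0547), and that of Cyp8b1 with the deposited processed values (0.101; 0.00169 to 0.101 over its alternatives). Cyp8b1 passed the detection rule through the control arrays alone.

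The remaining 17 P450 genes did not pass. Among them were the lung's best known one and 5 of the 6 measured genes grouped here as sterol, bile acid and steroid P450s. Cyp2f2, the club cell P450 that activates naphthalene, gave 15.99, 15.95 and 15.97 in controls and 15.97, 15.92 and 15.80 in mutants and differed by -0.07 (95% confidence interval -0.32 to 0.18), but its raw intensity of 56571 to 66972 lay close to the highest intensity of any probe on each array (63916 to 66972), where a rise is hard to measure. Cyp2s1, an airway P450, differed by 0.09 ± 0.13 and Cyp1b1, a target of the aryl hydrocarbon receptor, by 0.35 ± 0.23 (interval -0.21 to 0.90). Cyp2a5, a nicotine and coumarin hydroxylase, varied from mouse to mouse: its values were 12.24, 10.69 and 10.24 in controls and 12.48, 11.76 and 11.54 in mutants. Control mouse 1 reached the level of the mutants, and the difference of 0.87 ± 0.51 did not pass (adjusted p = 0.244), but without control mouse 1 it was 1.46 and passed (adjusted p = 0.0382; 0.0382 to 0.533 over its alternatives). All 3 Cyp2a5 probes showed this order of the controls, and the closely related gene Cyp2a4 may share them. Of the 6 genes grouped as sterol, bile acid and steroid P450s only Cyp8b1 passed. Cyp27a1, which starts the acidic bile acid route, differed by 0.26 ± 0.12, and Cyp7b1, an oxysterol hydroxylase, by -0.14 ± 0.12. The oxysterol hydroxylase gene Cyp39a1 differed by 0.39 ± 0.12 (adjusted p = 0.0532) and the aldosterone synthase gene Cyp11b2 by 0.01 ± 0.13. Cyp20a1, an orphan P450 gene that the grouping took in, differed by -0.43 ± 0.16. Cyp2d40 differed by 0.54 ± 0.20 (adjusted p = 0.0849).

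Flavin monooxygenase genes rose in part. Fmo2, the main flavin monooxygenase of the lung in many mammals, gave 8.57, 8.43 and 8.86 in controls and 9.79, 9.69 and 9.29 in mutants, 1.96-fold higher (0.97 ± 0.18; adjusted p = 0.0107). Fmo4 gave 6.44, 5.95 and 5.98 in controls, where its probe was detected on 1 array, and 7.27, 7.31 and 6.78 in mutants, 2.00-fold higher (1.00 ± 0.20; adjusted p = 0.0134). Each mutant exceeded each control in both genes, and mutant mouse 3 was the lowest of the mutants in both. Fmo1, measured at 14.58, 14.37 and 14.69 in controls and 14.60, 14.44 and 14.49 in mutants, differed by -0.03 (interval -0.33 to 0.26), and Fmo5 differed by 0.32 ± 0.17 without passing. The fold of Fmo4 was 1.21 without background correction, and its call ended with the deposited processed values (adjusted p = 0.0967; 0.00579 to 0.0967 over its alternatives).

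**Figure D2:**
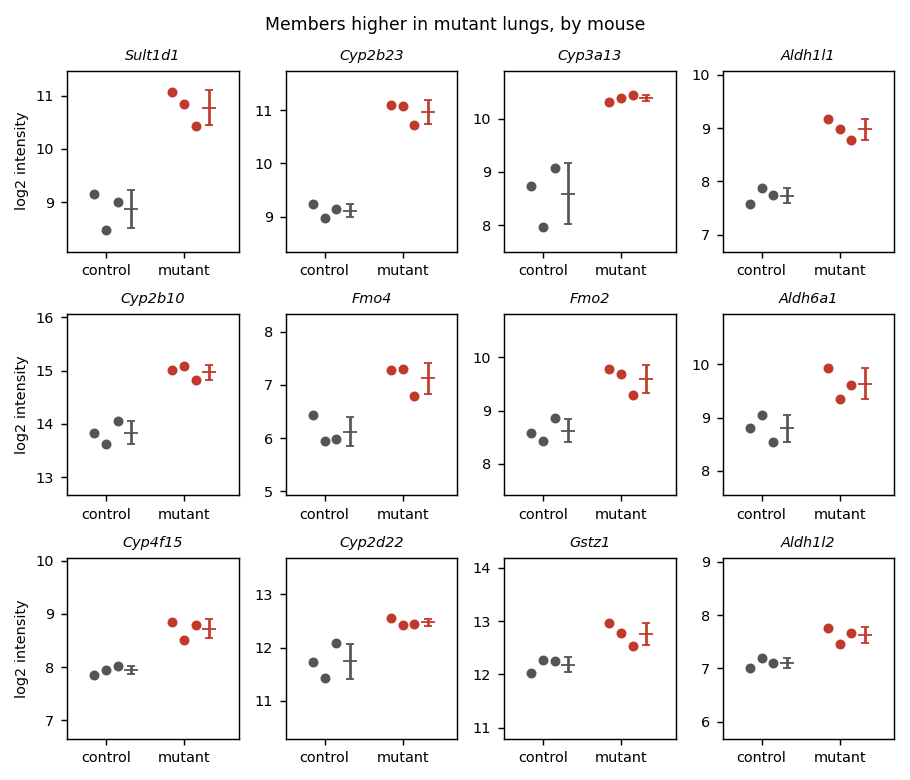
Normalized log2 intensity (y axis, all panels spanning 3.4 log2 units) of the 12 members that were higher in mutants, for each control and mutant mouse (points, mice 1 to 3 from left to right in each group), with the group mean and SD beside them (n = 3). In every panel the lowest mutant lies above the highest control, by the largest margins in Sult1d1, Cyp2b23 and Cyp3a13.

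The aldehyde dehydrogenases that rose act on folates and amino acid carbon rather than on drugs. Aldh1l1, the cytosolic enzyme that oxidises formyl-tetrahydrofolate, gave 7.58, 7.87 and 7.74 in controls and 9.18, 8.99 and 8.77 in mutants, 2.37-fold higher (1.25 ± 0.15; adjusted p = 0.00364), and its 3 probes agreed within 0.07 log2 units (1.25, 1.18 and 1.22). Aldh1l2, the mitochondrial counterpart, gave 7.00, 7.19 and 7.09 in controls and 7.75, 7.46 and 7.67 in mutants, 1.45-fold higher (0.53 ± 0.13; adjusted p = 0.0222). Aldh6a1, of valine and thymine breakdown, gave 8.80, 9.06 and 8.55 in controls and 9.93, 9.35 and 9.62 in mutants, 1.78-fold higher (0.83 ± 0.19; adjusted p = 0.0217). In all 3 genes the mutants lay above the controls, most clearly in Aldh1l1. Of 15 Aldh genes 3 rose and 1 fell, which is 26.7% and near the 27.2% of all named genes. The family count was 1 without control mouse 1, control mouse 3 or mutant mouse 1, since the calls of Aldh1l2 (adjusted p up to 0.0841), Aldh6a1 (up to 0.0706) and Aldh1a2 ended in each of these cases. Beyond this, Aldh1l2 did not pass without background correction, with median scaling or with the deposited processed values (adjusted p up to 0.170).

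The member that fell, Aldh1a2, makes retinoic acid from retinal. Its values were 8.09, 8.62 and 8.46 in controls and 7.31, 7.71 and 6.44 in mutants, 2.36-fold lower (-1.24 ± 0.32; adjusted p = 0.0306), and a second probe fell by 0.88 on the log2 scale. Mutant mouse 3 was lowest, and all 3 mutants lay below the controls. The other retinal-oxidising gene measured, Aldh1a1, gave 12.30, 11.75 and 11.68 in controls and 12.07, 12.08 and 11.78 in mutants and differed by 0.07 (interval -0.39 to 0.53). Aldh2, the mitochondrial enzyme that clears acetaldehyde, gave 15.48, 15.40 and 15.57 in controls and 15.68, 15.55 and 15.46 in mutants and differed by 0.08 (interval -0.19 to 0.35), and the aldehyde-clearing enzyme gene Aldh3a1 by 0.05 ± 0.39. The 8 remaining Aldh genes, among them Aldh3a2, Aldh3b1, Aldh4a1 and Aldh5a1, lay between -0.44 (Aldh18a1) and 0.41 (Aldh8a1), and none passed. Without control mouse 1, 2 or 3 or mutant mouse 1 the call of Aldh1a2 ended (adjusted p up to 0.0928), and without background correction its fold was 1.44.

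Carboxylesterases and epoxide hydrolases, which split esters and epoxides with water, are small families here and held falls but no rises. Of 5 Ces genes 2 fell (40%), against 14.5% of all named genes that were lower. Of 3 Ephx genes 1 fell (33.3%), Ephx2. It met the detection rule through the control arrays alone, so this share is not set against that of all genes. Ces2g gave 9.21, 10.01 and 9.03 in controls and 7.88, 8.34 and 7.77 in mutants, 2.67-fold lower (-1.42 ± 0.28; adjusted p = 0.013), and its second probe fell by 0.78 on the log2 scale. Ces1f gave 8.998, 8.41 and 8.51 in controls and 7.44, 7.74 and 7.66 in mutants, 2.03-fold lower (-1.02 ± 0.18; adjusted p = 0.00951). The groups were separate for both. The other 3 Ces genes did not pass. Ces1e, next to Ces1f in the genome, differed by -0.01 ± 0.19, Ces1b by 0.23 ± 0.23, and Ces1d, which hydrolyses triglycerides in fat and liver, gave 14.63, 14.62 and 14.75 in controls and 14.97, 14.81 and 14.84 in mutants (0.21 ± 0.11; adjusted p = 0.199). These paralogues are similar in sequence, so probes may not separate them fully. Ephx2, the soluble epoxide hydrolase that inactivates fatty acid epoxides, gave 6.62, 7.74 and 6.50 in controls and no detected value in mutants (5.68, 5.71 and 5.81), so it was, after background correction, at least 1.81-fold lower (adjusted p = 0.03). Control mouse 2 was the highest by more than 1 log2 unit, and the bound takes in its value. Ephx1, the microsomal epoxide hydrolase of drug metabolism, gave 13.31, 13.28 and 13.25 in controls and 13.35, 13.39 and 13.26 in mutants and differed by 0.05 (interval -0.19 to 0.30), and Ephx4 differed by 0.46 ± 0.20. Ephx4 passed as higher with array weights (0.55, adjusted p = 0.0260) and without mutant mouse 3 (0.64, adjusted p = 0.0426), with a range of 0.0260 to 0.442 over its alternatives. The call of Ephx2, which met the detection rule through the control arrays alone, ended without control mouse 1 or any 1 mutant (adjusted p up to 0.0799), without background correction (0.0602) and with the deposited processed values (0.159).

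**Figure D3:**
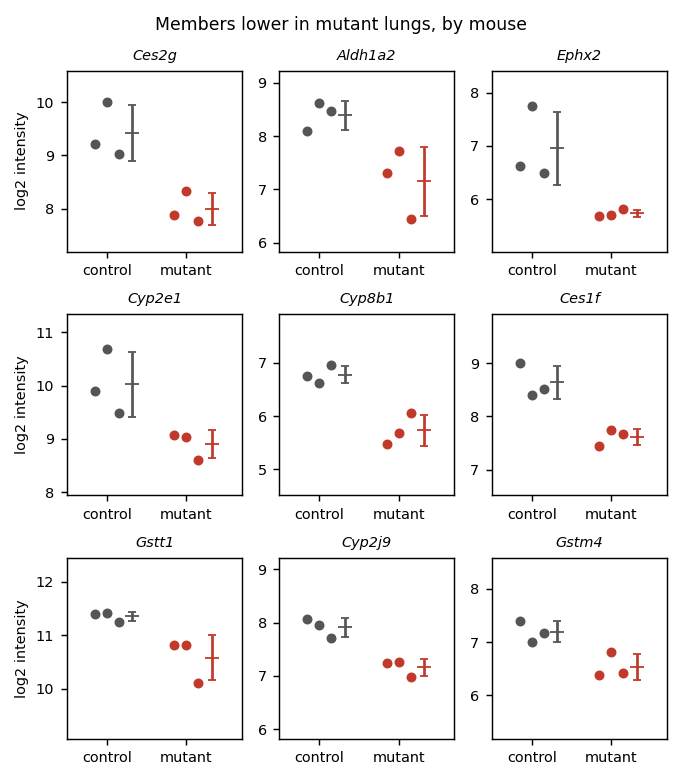
Normalized log2 intensity (y axis, all panels spanning 3.4 log2 units) of the 9 members that were lower in mutants, for each control and mutant mouse (points, mice 1 to 3 from left to right in each group), with the group mean and SD beside them (n = 3). Every mutant lies below every control, and control mouse 2 is the highest control for Ces2g, Aldh1a2, Ephx2, Cyp2e1 and Gstt1.

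Glutathione S-transferase genes differed little as a family. Of 19 measured, 1 rose and 2 fell, 15.8% against 27.2% of all named genes, and their median difference was 0.09. Gstz1, which isomerises maleylacetoacetate in tyrosine breakdown, gave 12.02, 12.27 and 12.24 in controls and 12.96, 12.77 and 12.54 in mutants, 1.49-fold higher (0.58 ± 0.15; adjusted p = 0.0294). Gstt1, of the theta class, gave 11.39, 11.41 and 11.25 in controls and 10.83, 10.82 and 10.10 in mutants, 1.71-fold lower (-0.77 ± 0.21; adjusted p = 0.0354), while its neighbours Gstt3 and Gstt2 differed by 0.15 ± 0.13 and 0.24 ± 0.12. The groups did not overlap for Gstz1 or Gstt1, and mutant mouse 3 stood apart from the other mutants in Gstt1. Gstm4, of the mu class, gave 7.40, 7.01 and 7.17 in controls and 6.37, 6.82 and 6.43 in mutants, 1.57-fold lower (-0.65 ± 0.17; adjusted p = 0.0297). None of the 3 calls held when control mouse 1 or control mouse 3 was left out, and 1 held when control mouse 2 (Gstm4) or mutant mouse 1 (Gstt1) was. The adjusted p reached 0.103 for Gstz1, 0.105 for Gstt1 and 0.101 for Gstm4. With any 1 mouse left out the log2 difference stayed at 0.48 to 0.69 for Gstz1, -0.89 to -0.53 for Gstt1 and -0.79 to -0.55 for Gstm4. Fewer probes of any kind passed in these smaller fits (1664 to 3067, against 3573). Gstt1 also did not pass without the filter (0.0543), and Gstm4 did not pass without background correction (0.0759) or with the deposited processed values (0.196; 0.0126 to 0.196 over its alternatives).

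The other Gst classes were described by their values. The 3 alpha class genes all had positive differences: Gsta3 0.44 ± 0.15 (adjusted p = 0.0707, with a second, dimmer probe that rose by 1.04 ± 0.29, adjusted p = 0.0405), Gsta4 0.52 ± 0.20 and Gsta1 1.24 ± 0.98. Gsta3 passed as higher without background correction (adjusted p = 0.0363), with the variance trend (0.0293) and with array weights (0.0471). With its probes averaged Gsta3 differed by 0.74 and passed (adjusted p = 0.0372; 0.0293 to 0.179 over its alternatives). Gsta1 was the most variable member, at 5.93, 5.02 and 7.02 in controls and 5.40, 6.88 and 9.40 in mutants, so that mutant mouse 3 alone carried its mean. Its probe was detected on 2 arrays of each group. The 4 mu class genes beside Gstm4 differed by -0.51 (Gstm5), -0.28 (Gstm6), -0.21 (Gstm2) and 0.04 (Gstm1), and none passed. With control mouse 3 left out Gstm5 differed by -0.68 and passed (adjusted p = 0.0358; 0.0358 to 0.210 over its alternatives), the only Gst gene called in that case. Gstm2, at 14.49, 14.50 and 14.33 in controls and 14.26, 14.15 and 14.26 in mutants, had all 3 mutants below the controls, and its 3 probes agreed in sign. Pi, omega and kappa class genes lay between -0.39 (Gsto2) and 0.22 (Gstp3), and Gstp1, the general lung transferase, differed by 0.03 on its main probe and 0.06 on the other. Gstcd, a transferase-like gene, differed by 0.33 ± 0.21. Mu and pi class genes have near-identical copies, so probes can read more than 1 of them.

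Among the conjugating enzymes that use sulfate or glucuronic acid, a sulfotransferase gave the largest rise of any member that passed. Sult1d1, which sulfates catecholamines and other phenols in the mouse, gave 9.14, 8.47 and 9.01 in controls and 11.06, 10.84 and 10.42 in mutants, 3.73-fold higher (1.90 ± 0.23; adjusted p = 0.0039). The second Sult1d1 probe, near the background at 6.03 to 6.85 on all arrays, differed by 0.08 ± 0.21, so the mean of both Sult1d1 probes rose by 0.99, and with the deposited processed values the first rose by 1.30. Whether these probes read the same transcripts is unknown here. Sult1a1, the main phenol sulfotransferase, gave 12.52, 12.13 and 13.14 in controls and 13.79, 13.82 and 12.77 in mutants (0.86 ± 0.35; adjusted p = 0.113). Mutant mouse 3 lay within the range of the controls, and without it the difference was 1.21 and passed (adjusted p = 0.0336; 0.0139 to 0.278 over its alternatives). Sult5a1 differed by 0.68 ± 0.27 (adjusted p = 0.103), and by 0.96, which passed, without control mouse 3 (adjusted p = 0.0248; 0.0166 to 0.269 over its alternatives), and Sult2b1, a cholesterol sulfotransferase, by -0.002 ± 0.295. With control mouse 3 or mutant mouse 3 left out, 2 Sult genes were therefore called. None of the 3 Ugt genes passed on its main probe: Ugt1a10 gave 10.98, 11.05 and 11.01 in controls and 10.78, 11.09 and 10.70 in mutants (-0.15 ± 0.13), Ugt8a, which makes the myelin lipid galactosylceramide, gave 6.66, 5.97 and 6.45 in controls and 6.37, 6.23 and 5.92 in mutants (-0.19 ± 0.21), and Ugt1a6a differed by 0.03 ± 0.22. A second Ugt1a6a probe rose by 0.74 ± 0.20 (adjusted p = 0.0328). The Ugt1a enzymes are made from a shared set of downstream exons, so probes there cannot tell them apart.

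**Figure D4:**
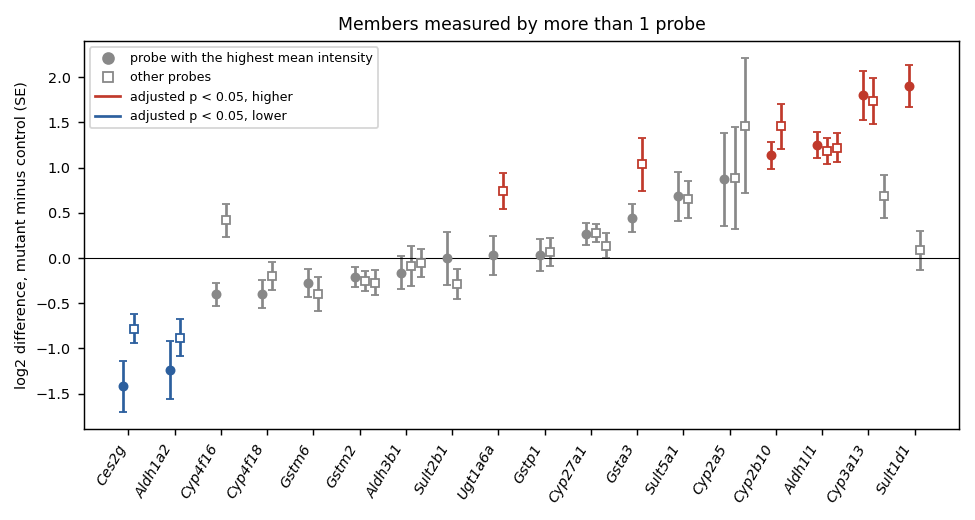
Log2 difference between mutant and control lungs (y axis, mutant minus control, bars show the SE of the fit) for each probe of the 18 members measured by more than 1 probe (x axis). The probes of Ces2g, Aldh1a2, Aldh1l1 and Cyp2b10 passed together, whereas Sult1d1, Cyp3a13, Gsta3 and Ugt1a6a had probes on both sides of the threshold and the 2 Cyp4f16 probes had opposite signs.

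Genes that serve or regulate these enzymes were read from a list of 90, of which 55 were measured: 10 rose and 7 fell, 30.9% in all, near the 27.2% of all named genes (12.7% higher and 14.5% lower). Of 6 redox partners of P450s only Cyb5r1, a cytochrome b5 reductase, passed, lower by 0.70 on the log2 scale. Of 11 regulators only Rxrb, a retinoid X receptor that pairs with CAR and other nuclear receptors, passed (0.44 ± 0.11; adjusted p = 0.0262), although 10 of the 11 had positive differences. The antioxidant response factor gene Nfe2l2 differed by 0.10 ± 0.19 and the aryl hydrocarbon receptor repressor gene Ahrr, itself a target of that receptor, by -0.11 ± 0.14. The list also named the P450 reductase gene Por and the receptor genes Ahr, Nr1i2 and Nr1i3 (CAR). None of these was measured here, so their levels are not known. Other phase I enzyme genes moved both ways, 6 up and 4 down of 23. Xdh, the purine-oxidising xanthine dehydrogenase, gave 12.47, 11.90 and 12.74 in controls and 13.91, 13.79 and 13.93 in mutants and rose 2.84-fold (adjusted p = 0.00542), the quinone reductase gene Nqo1 rose 2.21-fold (adjusted p = 0.0397) and the carbonyl reductase gene Cbr3 2.09-fold (adjusted p = 0.041). The alcohol dehydrogenase gene Adh1, which oxidises retinol and ethanol, fell 2.55-fold (-1.35 ± 0.31; adjusted p = 0.0206). Nqo2 and Nqo1 went in opposite directions, Nqo2 being 2.05-fold lower.

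Among the other conjugation genes Papss2, which makes the sulfate donor used by the Sult enzymes, rose 1.91-fold (0.94 ± 0.26; adjusted p = 0.0394), and the arsenic methyltransferase gene As3mt fell 1.56-fold. Of 4 efflux pump genes, Abcb1b, a mouse P-glycoprotein, gave 7.61, 7.83 and 8.09 in controls and 9.22, 9.57 and 9.67 in mutants, 3.12-fold higher (1.64 ± 0.18; adjusted p = 0.0032). Without background correction Abcb1b was 1.96-fold and Papss2 1.27-fold higher. Abcc3, which exports conjugates, rose by 0.69 on the log2 scale (adjusted p = 0.0467) and Abcc5 fell by 0.58 (adjusted p = 0.0122). The count of 17 depended on single mice: it was 3 with control mouse 1 left out, 4 with control mouse 2, 14 with control mouse 3, and 8, 10 and 9 with mutant mouse 1, 2 and 3 left out.

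Markers of some lung cell types moved beside these genes, and in whole lung fewer cells of a type and less RNA per cell cannot be told apart. Calls in either direction took in 66.7% of fibroblast, 80% of smooth muscle and 83.3% of endothelial markers, against 27.2% of all named genes. The share was near or below this for club cell (25%), macrophage (25%), cardiac muscle (28.6%), ciliated cell (16.7%) and alveolar type 2 (11.1%) markers. It was 33.3% for the adipocyte list. Of 8 club cell markers measured, 2 rose, Nupr1 by 1.40 and Cldn10 by 0.51 on the log2 scale, and none fell. In all, 3 of the 8 had positive and 5 negative differences, and the list mean was 12.72 to 12.92 in controls and 12.64 to 13.31 in mutants. Scgb1a1 differed by -0.01 ± 0.10, near the top of the intensity scale. Stromal and vascular list means were lower, though not every marker fell. Of 9 fibroblast markers 6 fell, with list means of 11.14 to 11.67 in the control and 9.95 to 10.29 in the mutant group. So did 4 of 5 smooth muscle markers (11.25 to 11.68 against 10.25 to 10.60) and 5 of 6 endothelial markers (12.35 to 12.61 against 11.61 to 11.94). The endothelial marker Pecam1 (-0.03 ± 0.12), the fibroblast markers Pdgfra (-0.04 ± 0.17) and Inmt (-0.04 ± 0.11) and the smooth muscle marker Myh11 (-0.47 ± 0.20) did not pass. Neither did the fibroblast marker Dcn (0.22 ± 0.13), for which every mutant lay above every control. Of 9 alveolar type 2 markers 1 fell and of 4 alveolar type 1 markers none passed. Of 3 adipocyte markers Adipoq fell, and the list mean was 9.85 in control mouse 2, 7.94 in control mouse 1, 7.21 in control mouse 3 and 6.19 to 6.84 among the mutants. Of the 9 lower members, Cyp2e1, Ephx2, Ces2g, Aldh1a2 and Gstt1 had their highest control value in control mouse 2. The next control lay close for Gstt1 (11.41 against 11.39) and Aldh1a2 (8.62 against 8.46). Ces1f, Cyp8b1 and Gstm4 had their lowest control value in control mouse 2, and Cyp2j9 was highest in control mouse 1. Without control mouse 2 the log2 differences of Cyp2e1, Ephx2, Ces2g, Aldh1a2 and Gstt1 were -0.79, -0.83, -1.12, -1.12 and -0.74. For Ephx2 it was -1.22 with all mice. Among 4 macrophage markers Adgre1 fell (list means 9.62 to 9.97 against 9.50 to 9.60), and among 7 cardiac muscle markers Actc1 and Myl3 fell (10.26 to 11.44 against 8.37 to 9.49). Among 6 ciliated cell markers Ccdc39 rose. The only hepatocyte marker measured, Serpina1a, ranged over 5.95 to 6.66 and differed by -0.11 ± 0.20. The part of these cell types in the changes of the enzyme genes was not tested.

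**Figure D5:**
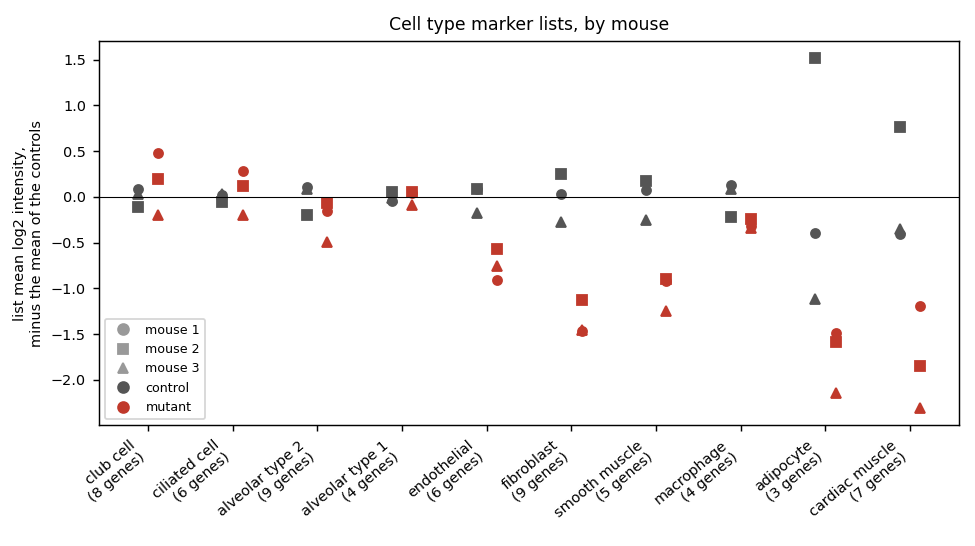
Mean log2 intensity of each cell type marker list in each mouse, as the difference from the mean of the 3 controls (y axis, log2 units), with the number of genes in each list on the x axis and mice 1 to 3 shown by symbol. The mutants lie below the controls for the endothelial, fibroblast, smooth muscle, macrophage, adipocyte and cardiac muscle lists, overlap them for the club, ciliated and alveolar lists, and control mouse 2 stands highest for the adipocyte and cardiac muscle lists.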

How the data were processed

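Per the labels, total RNA from 6 lungs was labelled and hybridised to Illumina bead arrays. The deposited table without normalization holds, per the file headers, 25697 probes, each with a linear intensity and a detection p-value on every array. The submitters' processing notes name GenomeStudio 2009.2 and R 2.4.1; whether background was subtracted before deposit is not stated there. A second deposited table holds the authors' processed log2 values of 13261 probes. Its columns for mutant mice 1 and 2 are identical at all 13261 probes, so it served only as an alternative, with those columns counted once.

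Intensities were corrected and quantile normalized by the neqc function (limma 3.58.1, R 4.3.3; negative controls inferred from detection p-values, offset 16, log2). The 13361 probes with detection p below 0.05 on at least 3 arrays were tested with lmFit and eBayes, without covariates, with Benjamini-Hochberg adjustment over all of these probes. Of 12495 probes named by the platform annotation, 12490 took their current symbol through the RefSeq genes of GRCm38.p6, and a gene was represented by its probe with the highest mean over the 6 arrays. Where a group had no array with detection, the fold is a bound, taken against the mean, over that group's arrays, of the higher of its own value and the lowest detected value. The code was checked on simulated data. The members and gene lists were chosen with earlier results of these data known. Every member may be named. By rule, values by mouse are given for members past the threshold or detected on no array of a group, for the brightest member of each family and for the most changed member of a family with none past it; of each partner list up to 4 changed genes, and of each marker list up to 3 that moved. Outside this rule, and with values already seen, Cyp2a5, Aldh1a1, Gsta1, Nfe2l2, Ahrr, Nqo2, Sftpc, Scgb1a1 and Serpina1a were added. So were the uncalled markers Pecam1, Pdgfra, Inmt, Myh11 and Dcn. The replicate numbers do not pair the mice: deviations of same-numbered mice correlated at -0.0857, -0.0140 and -0.0364 across probes. Alternatives were other background corrections and scaling, the deposited processed values, other filters, a variance trend, array weights, averaging a gene's probes, a replicate block, and leaving out each mouse.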

Additional observations from a re-analysis of the deposited data

How the results depend on the processing

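Over 16 alternative settings, 10 of the 21 changed members kept their direction and their call in each setting: Sult1d1, Cyp2b23, Cyp3a13, Aldh1l1, Cyp2b10, Fmo2 and Cyp4f15 higher, and Ces2g, Ces1f and Cyp2j9 lower. In 331 comparisons of a changed member with an alternative, 0 reversed and 51 lost the call, and 14 of the 57 uncalled members passed in at least 1 setting. Array weights gave 19 higher and 14 lower members (14 Cyp, 2 Ephx, 5 Gst and 3 Sult genes). The deposited processed values gave 5 lower members, with 1 Fmo and 0 Ephx genes. A detection p below 0.01 on all 6 arrays left 1 Fmo and 0 Ephx genes called, and no background correction 0 Ephx genes. With the replicate block, 2 Aldh genes and 1 Gst gene were called (9 higher and 9 lower in all); the block changed the number of calls of the other families by less than 1.5 times, and the numbers were shared by label only. Leaving out 1 mouse gave 8 to 14 higher and 4 to 7 lower members, 6 to 9 Cyp, 2 to 2 Fmo, 1 to 4 Aldh, 2 to 2 Ces, 0 to 1 Ephx, 0 to 2 Gst, 0 to 0 Ugt and 1 to 2 Sult genes, 3 to 14 partner and regulator genes and 1664 to 3067 probes, and a Tmem100 difference of -4.13 to -1.80. The causes were not tested, except that fewer mice were fitted when 1 was left out. Folds of dim probes depend on the background correction, and the bounds for Cyp8b1 and Ephx2 hold for the corrected values only. With the deposited processed values the log2 difference was 0.60 for Aldh1l1 and -0.82 for Ces2g.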
